A study of Mus musculus with 4 samples.

Results

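The genes described here handle fatty acids: they take them up, bind and activate them, carry them into mitochondria, oxidize them, or store them as triglyceride and release them again. The group was a list of 38 genes, chosen by symbol, and a gene was found where its symbol equalled a gene name in the deposited table. Of the 38 genes, 36 had a row in the table of 22554 genes and all 36 passed the filter on low counts. Fabp4, a lipid chaperone best known from adipocytes and macrophages, and Ppara, the PPAR receptor that drives oxidation genes in liver, had no row and were not analysed here.

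Group 2 innate lymphoid cells (ILC2s) are tissue lymphocytes that secrete type 2 cytokines when epithelial alarmins such as IL-33 activate them. Long-chain fatty acids enter cells through carriers such as CD36, are bound by small chaperones (FABPs), and are joined to coenzyme A by acyl-CoA synthetases. Carnitine palmitoyltransferases then carry them into the mitochondrial matrix, where repeated rounds of beta-oxidation shorten them and pass electrons to the respiratory chain, while surplus fatty acid is esterified to triglyceride and kept in lipid droplets coated with perilipins. The PPAR nuclear receptors sense fatty acids and control many of these genes, and activated ILC2s are known for burning fatty acids to sustain their effector function.

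ILC2s were sorted from the lungs of BALB/c mice aged 6 weeks and cultured in IL-2, IL-7 and IL-33. They were given either vehicle (labelled Control) or compound 5D, a blocker of the Orai calcium channels, with 2 libraries in each group. Both groups therefore received the 3 cytokines, no group was left unstimulated, and by their labels the groups differ in 5D alone. The comparison addresses whether blocking calcium entry altered transcripts of fatty acid handling. Nothing in the sources used here ties a library to its own mice or culture, so the p-values measure only the spread between these libraries, which may be technical.

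The libraries held between 20096555 and 28697265 estimated counts on genes, and both 5D libraries were deeper than both vehicle libraries. Replicates differed by more than counting noise, with a chi-square per degree of freedom of 6.10 between the vehicle libraries and 6.66 between the 5D libraries, so none was a copy of another. Levels are given as CPM, the count scaled to the library total and corrected by the normalization factor. All 13 ILC2 markers were above 1 CPM, with summed levels of 12196 and 12139 CPM with vehicle and 11331 and 11848 CPM with 5D. Markers of other lung cells that handle much fatty acid were low. Of 12 alveolar macrophage markers 7 had a row and summed to 4.68 to 12.9 CPM, with Ear2 at 0 and with Marco, Mrc1, Ear1, Car4 and Krt79 without a row. Of 9 endothelial markers 3 had a row and summed to 20.9 to 29.8 CPM, mostly from Pecam1, and of 8 adipocyte and fibroblast markers 3 had a row and summed to at most 0.172 CPM, with Col1a2 and Pdgfra at 0. Of 7 T cell markers 6 had a row and summed to 89.8 to 98.2 CPM, mostly from Trbc1 and Cd3g, with Cd4 at 0. Trac read 0 to 0.400 CPM. Epithelial markers summed to 27.0 to 28.8 CPM, mostly from Epcam, and B cell markers to 13.6 to 19.4 CPM, mostly from Cd79b. Eosinophil or mast cell markers summed to 7.30 to 10.2 CPM.

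Promoter sequence is shown for 3 members: Plin2 and Cpt1a, which had the smallest p-values of the 36, and Hadhb, whose window overlaps that of Hadha, the other subunit of the same enzyme. Each window holds the 250 bases before and the 50 bases after the RefSeq transcription start, 5′ to 3′ on the strand of the gene, from GRCm38.p6. In the windows of Plin2 (chr4:86670010-86670309, minus strand) and Cpt1a (chr19:3323051-3323350, plus strand) capitals mark TGACCT, the reverse complement of AGGTCA, the core motif that nuclear receptors such as the PPARs recognize. In the Hadhb window (chr5:30155003-30155302, plus strand) capitals mark the 228 bases that also lie in the Hadha window on the opposite strand. RefSeq starts can differ from the starts in the GENCODE annotation, which gave the gene positions printed below. The Cpt1a window, with its marked letters, lies inside the GENCODE span of the gene.
Plin2: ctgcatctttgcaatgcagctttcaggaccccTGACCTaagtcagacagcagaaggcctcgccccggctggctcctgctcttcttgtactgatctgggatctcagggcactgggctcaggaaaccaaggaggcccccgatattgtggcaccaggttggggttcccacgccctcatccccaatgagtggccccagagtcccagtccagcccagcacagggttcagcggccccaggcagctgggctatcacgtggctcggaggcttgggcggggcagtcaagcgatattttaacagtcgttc
Cpt1a: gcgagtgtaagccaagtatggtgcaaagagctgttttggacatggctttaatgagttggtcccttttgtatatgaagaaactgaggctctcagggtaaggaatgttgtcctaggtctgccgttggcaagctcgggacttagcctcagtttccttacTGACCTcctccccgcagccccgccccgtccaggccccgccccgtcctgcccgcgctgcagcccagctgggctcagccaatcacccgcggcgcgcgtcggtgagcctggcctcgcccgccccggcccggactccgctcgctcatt
Hadhb: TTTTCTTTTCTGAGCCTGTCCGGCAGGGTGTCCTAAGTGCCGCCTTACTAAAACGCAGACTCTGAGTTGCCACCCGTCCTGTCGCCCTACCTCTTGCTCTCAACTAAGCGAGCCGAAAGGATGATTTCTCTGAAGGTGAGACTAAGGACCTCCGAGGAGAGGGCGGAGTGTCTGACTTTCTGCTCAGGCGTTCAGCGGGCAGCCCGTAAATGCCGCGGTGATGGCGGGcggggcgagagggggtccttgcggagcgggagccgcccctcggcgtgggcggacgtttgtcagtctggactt

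Windows were given for 30 of the 38 members, 35 windows in all. AGGTCA, searched on both strands, was in 8 windows of 7 members (Acadm, Acadvl, Cd36, Cpt1a, Echs1, Plin2 and Pparg), and in 16.3% of the 32851 windows of all genes. The direct repeat of AGGTCA with 1 base between the copies, which contains the core motif, was in none of the 35 member windows and in 0.0396% of all windows. These matches describe letters in the windows and were not tested as binding sites.

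Levels of different genes were compared per length, as normalized CPM per kb of the principal transcript. The lipid droplet coat protein gene Plin2 was the highest member, with 249 ± 3.55 CPM per kb with vehicle and 293 ± 8.002 CPM per kb with 5D (mean ± SD, n = 2 in each group, as for all means below). By CPM, without the scaling for length, it ranked 254 of the 17650 genes tested. With vehicle it was followed per length by Etfb at 190 CPM per kb, the fatty acid chaperone Fabp5 at 159, Etfa at 121 and the nuclear receptor Pparg at 108.

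Several enzymes of mitochondrial beta-oxidation sat just below, with Acadvl at 94.3, Hadhb at 93.8 and Acadl at 92.9 CPM per kb with vehicle. The rate-controlling Cpt1a was lower, at 30.9 ± 1.40 CPM per kb with vehicle. At the other end were the lipases Lipe (2.94) and Mgll (2.09), the peroxisomal Ehhadh (1.96), Ppard (0.569) and the fatty acid translocase Cd36, the lowest at 0.405 CPM per kb.

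**Figure D1:**
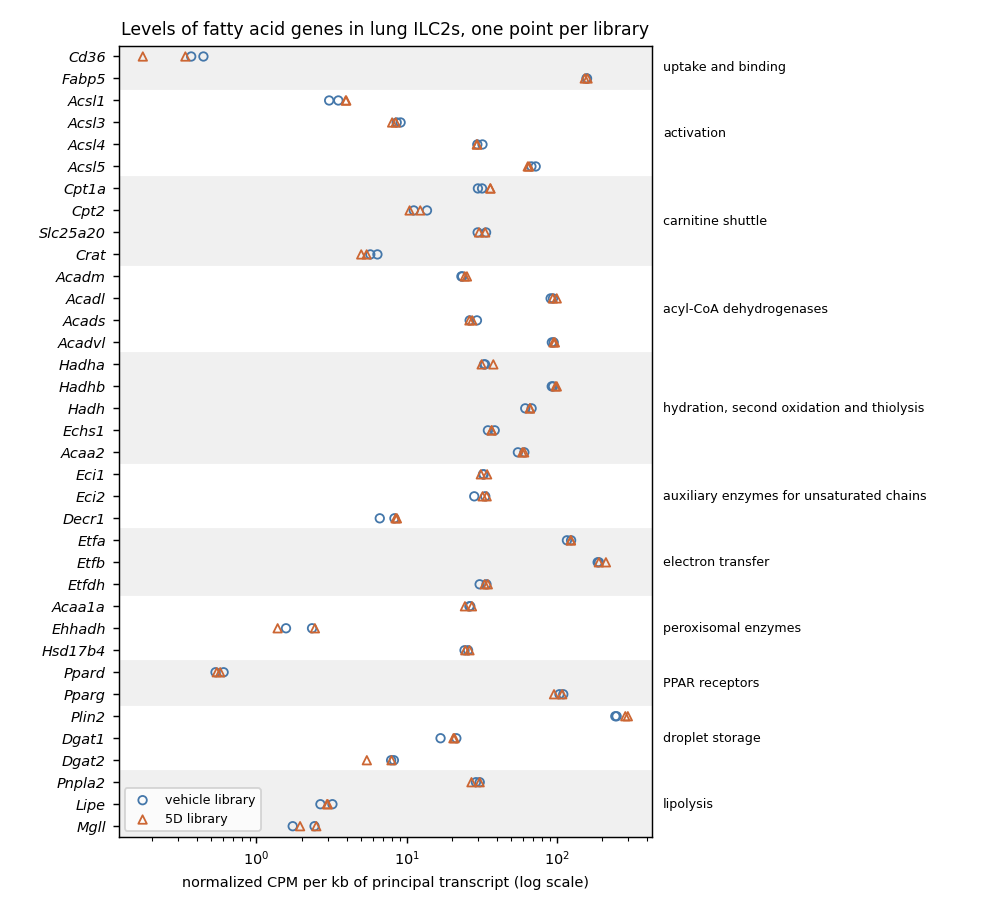
Levels of the 36 members in each library, as normalized CPM per kb of principal transcript on a log axis, with circles for the 2 vehicle libraries, triangles for the 2 5D libraries and shaded bands for the roles named at the right. Plin2 is the highest member and Cd36 the lowest, and for most members the circles and triangles lie on top of each other.

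With 5D, no member passed an adjusted p-value of 0.05 in the quasi-likelihood test of edgeR, adjusted after Benjamini and Hochberg over the whole table (0 higher and 0 lower), against backgrounds of 0.0283% of all genes called higher and 0.068% called lower. At an unadjusted p-value under 0.05, 2 members were higher (Plin2 and Cpt1a) and 1 was lower (Acsl5), against 3.5% of all genes higher and 3.84% lower. DESeq2's Wald test and limma-voom each gave 1 member higher at an adjusted p-value under 0.05, which was Plin2, and 0 lower. The median log2 fold change of the 36 members was 0.021, beside -0.0016 over all genes tested, with 22 members above 0 and 14 below. Without the second vehicle library this median was -0.00067.

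The fold changes were small. They ran from -0.67 (Cd36) to 0.27 (Acsl1) on the log2 scale, and 33 of the 36 intervals at 95% included 0. For 31 members the whole 95% interval lay within a 1.5-fold change in either direction. Among genes with a mean of at least 10 CPM, the median absolute log2 fold change was 0.069 over 32 members and 0.073 over 8737 genes.

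Counted by libraries, both 5D libraries lay above both vehicle libraries for 6 members (Acsl1, Cpt1a, Acadm, Hadhb, Decr1 and Plin2), which is 16.7% beside 18.7% of all genes tested. Both lay below for 5 members (Cd36, Acsl3, Acsl4, Acsl5 and Crat), which is 13.9% beside 18.8% of all genes. The groups overlapped for the other 25 members. The summed level of the members was 3452 and 3384 CPM with vehicle and 3527 and 3556 CPM with 5D. Both 5D sums were above both vehicle sums by a small step, which was not tested. Within these sums Plin2 read 465 and 474 CPM with vehicle and 563 and 542 CPM with 5D.

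**Figure D2:**
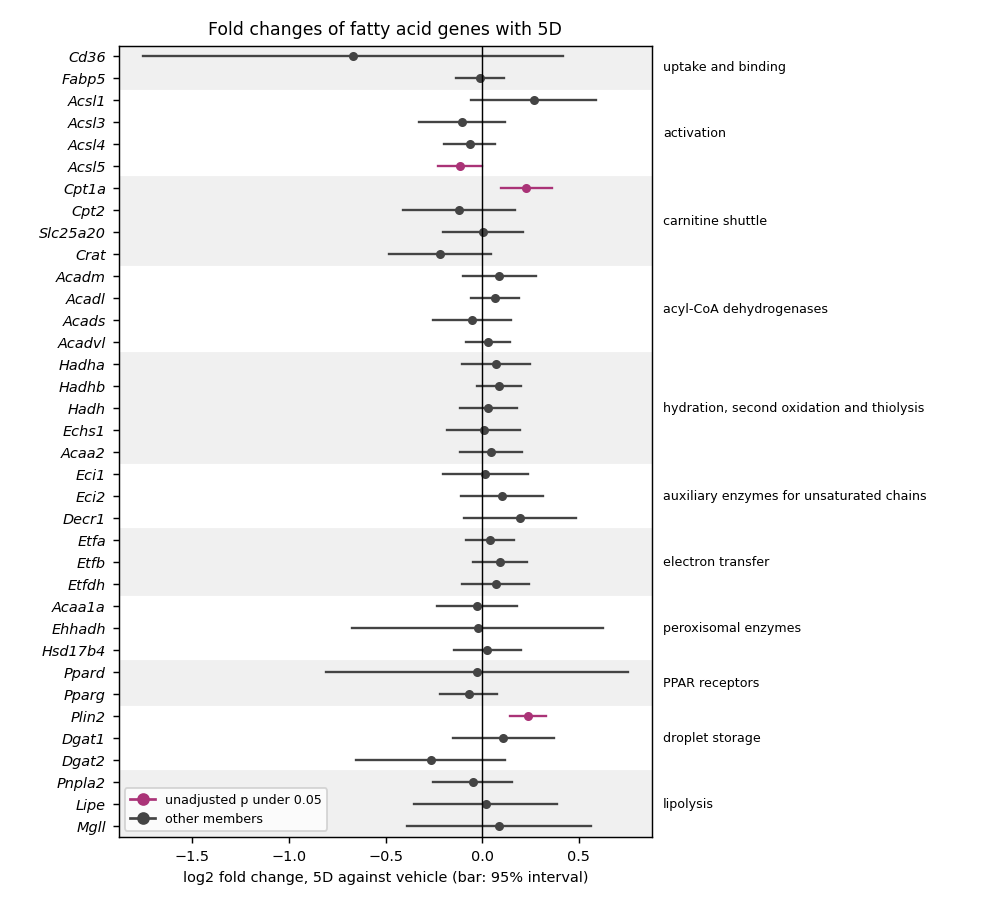
Log2 fold change of each member with 5D against vehicle (points) and its 95% interval from edgeR's quasi-likelihood test (bars), ordered by role. The intervals of Plin2, Cpt1a and Acsl5, which had unadjusted p-values under 0.05, exclude 0, and the widest intervals belong to the lowly expressed Cd36, Ppard and Ehhadh.

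Plin2 encodes perilipin 2, which coats lipid droplets and is made in step with the amount of stored neutral lipid. The gene lies on mm10 chr4:86648386-86670060, minus strand. It read 465 and 474 CPM in the vehicle libraries and 563 and 542 CPM in the 5D libraries, from 9494 to 15499 estimated counts per library. Both 5D libraries were above both vehicle libraries, and the gap between the groups was wider than the gap within either. The log2 fold change was 0.23 (SE 0.04), a 1.18-fold difference with a 95% interval of 1.10 to 1.26, and an adjusted p-value of 0.105 in edgeR (Benjamini-Hochberg). By p-value Plin2 came before the other members and ranked 29 among all genes tested.

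Whether Plin2 passed the threshold depended on the test and the libraries. The adjusted p-value was 0.000125 with DESeq2's Wald test, 0.0265 with limma-voom, 0.0234 with no filter on low counts and 0.0329 with the replicate number as a block. Left out in turn, the first vehicle library gave 0.0389, the second vehicle library 0.0137, the first 5D library 0.339 and the second 5D library 0.141, all from edgeR (Benjamini-Hochberg). Under these left-out libraries the log2 fold change stayed between 0.20 and 0.26.

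The enzymes that fill the droplet were lower than Plin2 per length, at 19.2 CPM per kb for Dgat1 and 8.07 CPM per kb for Dgat2 with vehicle. Dgat1 and Dgat2 both add the last fatty acid to make triglyceride. Dgat1 read 40.6 and 31.8 CPM with vehicle and 39.4 and 38.8 CPM with 5D, and the groups overlapped. Dgat2 read 17.9 and 18.6 CPM with vehicle against 12.3 and 17.98 CPM with 5D, so that the first 5D library alone stood low. Its log2 fold change of -0.27 had a 95% interval of -0.65 to 0.12 (edgeR's quasi-likelihood test, adjusted p = 0.810), and without the first 5D library it was -0.026.

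Of the lipases that empty the droplet, Pnpla2, which makes the initial cut in triglyceride, was the highest per length at 29.9 CPM per kb with vehicle, and it read 55.3 and 52.2 CPM with vehicle and 55.3 and 48.8 CPM with 5D. The hormone-sensitive lipase Lipe read 9.64 and 11.6 CPM with vehicle and 10.8 and 10.7 CPM with 5D. Mgll, which cleaves the monoglyceride that remains, read 9.43 and 6.75 CPM with vehicle and 9.69 and 7.55 CPM with 5D. For all 3 lipases the groups overlapped, with log2 fold changes of -0.049, 0.018 and 0.087. Per length, the ratio of Plin2 to Pnpla2 was 8.01 and 8.66 with vehicle and 9.71 and 10.6 with 5D, higher in both 5D libraries, and it was not tested as a ratio.

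**Figure D3:**
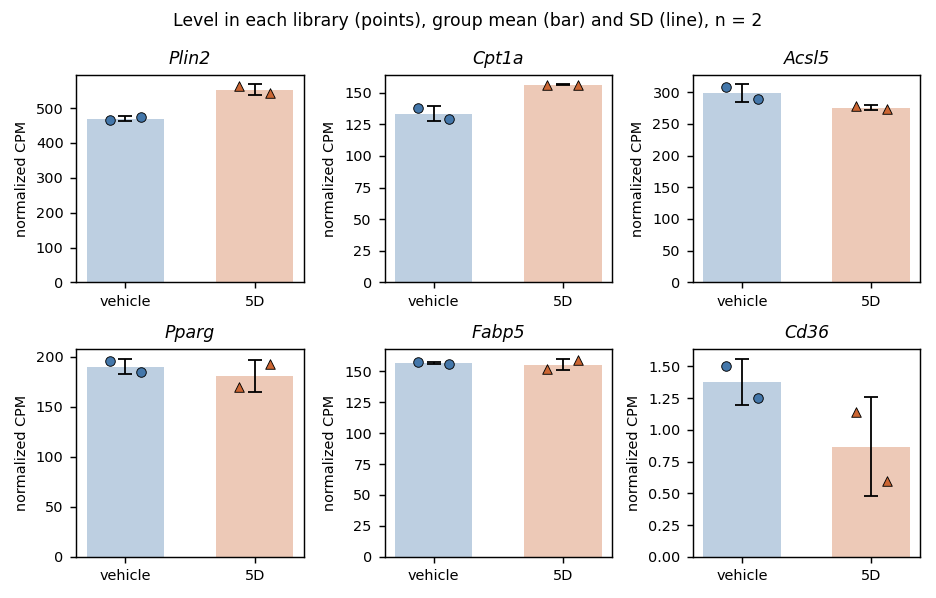
Normalized CPM of Plin2, Cpt1a, Acsl5, Pparg, Fabp5 and Cd36 in each library (points), with the group mean (bar, from 0) and SD (line), n = 2 in each group. The points of the 2 groups are apart for Plin2, Cpt1a, Acsl5 and Cd36 and overlap for Pparg and Fabp5.

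Transcripts for uptake through CD36 were few. Cd36, the long-chain fatty acid translocase, had 35 and 25 estimated counts with vehicle and 31 and 17 with 5D, which is 1.51 and 1.249 CPM against 1.14 and 0.595 CPM. Both 5D libraries were below both vehicle libraries, but at this depth the log2 fold change of -0.67 had a 95% interval of -1.76 to 0.42 (edgeR's quasi-likelihood test, adjusted p = 0.836). Cd36 is also a gene of alveolar macrophages and capillary endothelium. The macrophage markers summed to 11.2 and 12.6 CPM with vehicle and 4.68 and 12.9 CPM with 5D. The endothelial markers summed to 29.8 and 25.8 CPM with vehicle and 25.9 and 20.9 CPM with 5D. Most of that sum was Pecam1, at 23.7 and 21.3 CPM with vehicle and 19.9 and 15.7 CPM with 5D. Egfl7 went the other way, from 4.13 and 4.10 CPM with vehicle to 5.16 and 4.37 CPM with 5D. The low macrophage sum rested on Chil3, at 0.0368 CPM in the first 5D library and 5.85 to 8.22 CPM in the others, while Cd68 read 2.71 and 3.65 CPM with vehicle and 4.02 and 3.99 CPM with 5D. The part of these cell types in the Cd36 value was not tested. In bulk RNA, fewer cells of a type and less RNA per cell cannot be told apart.

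Fabp5, which ferries fatty acids through the cytosol and to the nucleus, read 158 and 156 CPM with vehicle and 152 and 159 CPM with 5D. The 5D libraries lay on either side of the vehicle libraries, and the fold of 0.991 had a 95% interval of 0.909 to 1.08. The Fabp5 transcript shares 409 nt at 95% identity or more with the pseudogene Gm6166, which had 805 to 1120 counts per library and a log2 fold change of -0.040, and reads of the pair could have been split between them.

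The long-chain acyl-CoA synthetases trap fatty acids in the cell by activating them. Among the 4 listed as members, Acsl1, Acsl3, Acsl4 and Acsl5, the main one was Acsl5. It had 61.9% and 62.2% of their summed per-length level with vehicle and 61.2% and 60.6% with 5D. Acsl4 followed with 27.1% to 27.7%, Acsl3 with 7.49% to 7.98% and Acsl1 with 2.79% to 3.74%. The order of the 4 was the same in every library. Acsbg1, a further synthetase named below, was not part of these shares. It had 37.5 CPM per kb with vehicle and 41.7 with 5D, above Acsl4 at 30.9 and 29.5.

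Acsl5, found on mitochondria and endoplasmic reticulum and encoded on mm10 chr19:55251938-55297720, plus strand, read 308 and 288 CPM with vehicle and 278 and 273 CPM with 5D. Both 5D libraries were below both vehicle libraries, with a narrower step between the groups than between the vehicle libraries. The log2 fold change was -0.11 (SE 0.05), a fold of 0.923 with a 95% interval of 0.854 to 0.998 (edgeR's quasi-likelihood test, adjusted p = 0.662). Its unadjusted p-value, under 0.05 here, was above 0.05 under TMM normalization and without the first vehicle library or either 5D library. The log2 fold change ran from -0.16 without the second vehicle library to -0.070 without the first. Exons of Acsl5 overlap those of Zdhhc6 on the other strand, which read 87.2 and 81.0 CPM with vehicle and 96.8 and 89.9 CPM with 5D, and the sources used here do not say that counting used strand.

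None of the other Acsl members reached an unadjusted p-value under 0.05. Acsl4, which prefers arachidonate, read 169 and 157 CPM with vehicle and 156 and 155 CPM with 5D. Acsl3, which acts at nascent lipid droplets, read 36.1 and 34.0 CPM with vehicle and 31.7 and 33.5 CPM with 5D. Acsl1, the main form of adipose tissue, liver and muscle, read 13.7 and 11.9 CPM with vehicle and 15.3 and 15.5 CPM with 5D. The 5D libraries were the lower ones for Acsl3 and Acsl4 and the higher ones for Acsl1. Adjusted p-values by edgeR's quasi-likelihood test were 0.883 for Acsl4, 0.890 for Acsl3 and 0.755 for Acsl1, whose log2 fold change of 0.27 had a 95% interval of -0.06 to 0.59.

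Cpt1a encodes the liver form of carnitine palmitoyltransferase 1 on the outer mitochondrial membrane, the step that controls entry of long-chain fatty acids into oxidation and that malonyl-CoA inhibits. It lies on mm10 chr19:3322334-3385733, plus strand, with no exon shared with another gene and no near-identical copy found. The promoter window shown above, placed by the RefSeq start, falls inside this GENCODE span. Cpt1a read 138 and 129 CPM with vehicle and 156 CPM in both 5D libraries. The 5D libraries were above both vehicle libraries and almost equal to each other. The log2 fold change was 0.23 (SE 0.06), a 1.17-fold difference with a 95% interval of 1.07 to 1.28 (edgeR's quasi-likelihood test, adjusted p = 0.418), and by p-value the gene ranked 114 among all genes tested. The adjusted p-value was 0.0989 with DESeq2's Wald test and between 0.0670 and 0.757 when a library was left out.

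The rest of the carnitine shuttle had values on either side of 0. Cpt2, which hands the acyl group back to coenzyme A inside the mitochondrion, read 26.5 and 32.5 CPM with vehicle and 29.3 and 24.9 CPM with 5D. Slc25a20, the carnitine/acylcarnitine carrier of the inner membrane, read 60.4 and 53.1 CPM with vehicle and 54.3 and 59.6 CPM with 5D. Crat, which exchanges acetyl groups between coenzyme A and carnitine, read 24.2 and 27.0 CPM with vehicle and 22.9 and 21.1 CPM with 5D. The groups overlapped for Cpt2 and Slc25a20, while both 5D libraries were below both vehicle libraries for Crat. Its log2 fold change of -0.22 had a 95% interval of -0.48 to 0.05 (edgeR's quasi-likelihood test, adjusted p = 0.754).

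The 15 mitochondrial beta-oxidation enzymes and electron carriers stood close together. The log2 fold changes had a median of 0.067 and a range of -0.055 to 0.20. Of the 15, 14 were above 0 (49.6% of all genes tested were), and 0 had an unadjusted p-value under 0.05 in edgeR's quasi-likelihood test. All were read from the same libraries, so their signs are not independent, and the tally was not tested. Acads, Hadha, Hadh, Echs1, Acaa2, Eci1, Eci2, Etfa and Etfdh changed sign when a library was left out. All 15 had a 95% interval within 1.5-fold. Their summed level was 1605 and 1590 CPM with vehicle and 1653 and 1672 CPM with 5D. Both 5D libraries lay above both vehicle libraries for 3 of the 15, below for 0, and the groups overlapped for the other 12, beside 18.7% above and 18.8% below over all genes tested.

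The acyl-CoA dehydrogenases open each round of oxidation and differ in the chain length they take. The very long chain enzyme Acadvl read 207 and 202 CPM with vehicle and 207 and 211 CPM with 5D, and the long chain enzyme Acadl read 175 and 181 CPM with vehicle and 181 and 192 CPM with 5D. Acadm, for medium chains, read 47.5 and 48.2 CPM with vehicle and 51.7 and 50.05 CPM with 5D, and Acads, for short chains, read 49.3 and 55.1 CPM with vehicle and 49.1 and 51.3 CPM with 5D. Only for Acadm among these 4 were the 5D libraries clear of the vehicle libraries, by a log2 fold change of 0.089 (edgeR's quasi-likelihood test, adjusted p = 0.890). Acads was the sole enzyme of the 15 with a log2 fold change below 0, at -0.055.

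Hadha and Hadhb encode the subunits of the mitochondrial trifunctional protein, which carries out the remaining steps for long chains. The genes lie head to head on mm10 chr5, with Hadha at 30118304 to 30155162 on the minus strand and Hadhb at 30155248 to 30184593 on the plus strand. Their GENCODE starts are 86 bp apart, while the RefSeq starts used for the promoter windows are 273 bp apart. Hadha read 134 and 132 CPM with vehicle and 127 and 152 CPM with 5D. Hadhb read 194 and 190 CPM with vehicle and 205 and 202 CPM with 5D. The 5D libraries were far apart for Hadha, on either side of the vehicle libraries, and together above them for Hadhb. The log2 fold changes were 0.071 (SE 0.08) for Hadha and 0.084 (SE 0.05) for Hadhb, with adjusted p-values of 0.903 and 0.794 by edgeR's quasi-likelihood test.

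Per length, Hadha was lower than Hadhb in every library, with a ratio of 0.352 and 0.354 with vehicle and 0.316 and 0.385 with 5D. Hadhb shares 1428 nt at 95% identity or more with the pseudogene Gm13910, which had 180 to 251 counts per library, and Hadha has exons that overlap a gene on the other strand. The ratio was therefore taken between genes whose reads may be partly shared with others.

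Soluble enzymes take over for shorter chains. Echs1, the short chain hydratase, read 54.3 and 60.3 CPM with vehicle and 57.6 and 57.4 CPM with 5D. Hadh, the 3-hydroxyacyl-CoA dehydrogenase, read 122 and 111 CPM with vehicle and 119 CPM in both 5D libraries. Acaa2, the thiolase that releases acetyl-CoA, read 83.7 and 92.4 CPM with vehicle and 92.2 and 89.7 CPM with 5D. In all 3 genes the 5D libraries lay within the range of the vehicle libraries, and the log2 fold changes were 0.0068, 0.031 and 0.046.

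Unsaturated fatty acids need further enzymes that move or remove their double bonds. The isomerase Eci1 read 37.2 and 36.8 CPM with vehicle and 39.2 and 35.6 CPM with 5D, and the isomerase Eci2 read 58.5 and 49.4 CPM with vehicle and 56.1 and 59.7 CPM with 5D. Decr1, the dienoyl-CoA reductase, read 19.6 and 24.6 CPM with vehicle and 25.5 and 25.0 CPM with 5D, so that the first vehicle library alone stood low. Its log2 fold change of 0.20 (SE 0.13), the highest of the 15, had a 95% interval of -0.09 to 0.49 (edgeR's quasi-likelihood test, adjusted p = 0.818), and it was 0.037 without that library.

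Electrons from the dehydrogenases pass through the electron transfer flavoprotein, a dimer of the products of Etfa and Etfb, to its ubiquinone oxidoreductase Etfdh. Etfa read 174 and 163 CPM with vehicle and 173 CPM in both 5D libraries, and Etfb read 168 and 171 CPM with vehicle and 190 and 171 CPM with 5D. Etfdh read 81.1 and 73.0 CPM with vehicle and 78.9 and 82.7 CPM with 5D. None of the 3 separated the groups, and the per-length ratio of Etfa to Etfb, at 0.665 and 0.612 with vehicle and 0.583 and 0.651 with 5D, overlapped as well.

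Peroxisomes shorten very long and branched chains with enzymes of their own. The thiolase Acaa1a read 46.2 and 46.9 CPM with vehicle and 43.2 and 48.1 CPM with 5D, and the multifunctional enzyme Hsd17b4 read 65.4 and 69.0 CPM with vehicle and 66.2 and 70.5 CPM with 5D. Ehhadh, the other multifunctional enzyme, was scarce at 4.69 and 6.996 CPM with vehicle and 4.13 and 7.31 CPM with 5D, and its replicates differed more than its groups did. The log2 fold changes were -0.028 for Acaa1a, 0.025 for Hsd17b4 and -0.024 for Ehhadh, whose 95% interval of -0.68 to 0.63 left a change of 1.5-fold inside. Acaa1a shares 1428 nt with its paralog Acaa1b, which had 25 to 42 counts per library. Exons of Acaa1a also overlap those of Myd88 on the other strand, and Myd88 had 9451 estimated counts summed over the libraries.

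Of the PPAR receptors, Pparg, known for driving lipid uptake and storage, was the abundant one in these ILC2s. It read 196 and 185 CPM with vehicle and 170 and 193 CPM with 5D, which overlap, with a log2 fold change of -0.070 and a 95% interval of -0.22 to 0.08 (edgeR's quasi-likelihood test, adjusted p = 0.888). Ppard, the more widely expressed receptor, had only 35 to 51 counts per library and read 1.98 and 1.75 CPM with vehicle and 1.88 and 1.78 CPM with 5D. Per length, Pparg made up 99.4% to 99.5% of the sum of both in every library, and the ratio of Pparg to Ppard was 183 and 196 with vehicle and 168 and 200.3 with 5D.

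**Figure D4:**
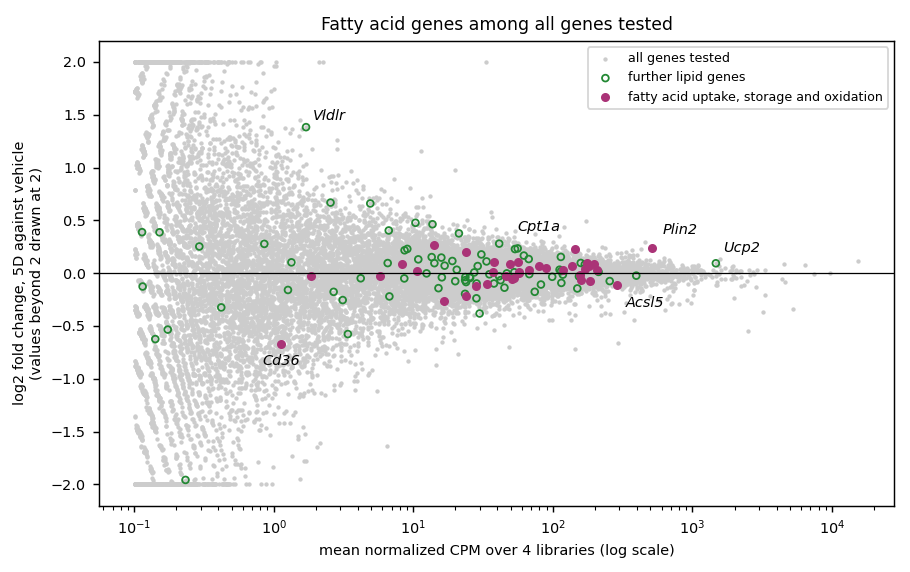
Log2 fold change with 5D against vehicle over the mean normalized CPM of the 4 libraries (log axis) for the 17650 genes tested (grey), with the 36 members (filled) and the 80 further lipid genes tested (open circles). The members run from -0.67 for Cd36, the least abundant of them, to 0.27 for Acsl1. Plin2, the most abundant member, is at 0.23.

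Beyond the 36 members, 105 further genes of the same pathways were listed, of which 90 had a row and 80 were tested. None reached an adjusted p-value under 0.05 in edgeR's quasi-likelihood test (0 higher and 0 lower), while 9 were higher and 3 lower at an unadjusted p-value under 0.05. The 9 make 11.2% and the 3 make 3.75% of those tested, beside 3.5% and 3.84% of all genes. The lists were chosen with earlier results of these data known, so these shares cannot show an excess. Their median log2 fold change was -0.0022. The count of 9 was 3 without the second 5D library, and the count of 3 was 0 without the second vehicle library. None of these 12 passed the adjusted threshold.

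In uptake, trafficking and activation, 3 of 19 tested genes (15.8%) were higher and 0 lower at the unadjusted threshold. Over all genes tested, 3.5% were higher and 3.84% lower. Vldlr, a receptor that brings triglyceride-rich lipoproteins to the cell, read 1.03 and 0.849 CPM with vehicle and 2.14 and 2.80 CPM with 5D, from 17 to 80 counts, a log2 fold change of 1.38 (SE 0.39, edgeR's quasi-likelihood test, adjusted p = 0.478). Both 5D libraries were above both vehicle libraries. The very long chain synthetase Acsbg1 read 109 and 107 CPM with vehicle and 118 and 123 CPM with 5D, and the mitochondrial thioesterase Acot2 read 3.49 and 4.15 CPM with vehicle and 4.86 and 7.17 CPM with 5D.

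In further mitochondrial and peroxisomal oxidation, 4 of 29 tested genes (13.8%) were higher and 0 lower, with a list median of 0.071. The shares over all genes tested were 3.5% higher and 3.84% lower. Crot, which makes carnitine esters of chains shortened in peroxisomes, read 37.2 and 37.3 CPM with vehicle and 41.9 and 48.6 CPM with 5D. Hacl1 and Phyh act in alpha-oxidation of branched chains in peroxisomes, and Hacl1 read 10.8 and 12.3 CPM with vehicle and 16.1 and 15.7 CPM with 5D. Phyh read 46.5 and 52.1 CPM with vehicle and 54.8 and 60.6 CPM with 5D. Acad10, a member of the acyl-CoA dehydrogenase family, read 8.48 and 8.84 CPM with vehicle and 13.5 and 10.6 CPM with 5D. The 5D libraries were the higher ones in each of these 4, with log2 fold changes of 0.28 for Crot, 0.46 for Hacl1, 0.23 for Phyh and 0.48 for Acad10 and adjusted p-values of 0.532 to 0.631 (edgeR's quasi-likelihood test).

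Among PPAR partners, coregulators and targets, 1 of 12 tested genes (8.33%) was higher and 2 (16.7%) were lower, beside 3.5% and 3.84% of all genes. Nrip1, a corepressor of metabolic genes, read 153 and 161 CPM with vehicle and 144 and 140 CPM with 5D, with both 5D libraries below both vehicle libraries. Ucp2, a carrier of the inner mitochondrial membrane and a PPAR target, read 1432 and 1413 CPM with vehicle and 1541 and 1495 CPM with 5D, and at 357 and 381 CPM per kb it was the highest of all the lipid genes listed.

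In further droplet storage and lipolysis, 1 of 20 tested genes (5%) was higher and 1 (5%) lower, beside 3.5% and 3.84% of all genes. Lpin1, the phosphatidate phosphatase that yields diacylglycerol, read 15.8 and 21.1 CPM with vehicle and 22.1 and 25.8 CPM with 5D. Agpat2, an acyltransferase one step earlier in the same route, read 30.1 and 31.2 CPM with vehicle and 25.5 and 26.4 CPM with 5D. The groups did not overlap for either, with log2 fold changes of 0.38 and -0.24 and adjusted p-values of 0.624 and 0.674 by edgeR's quasi-likelihood test. The most abundant genes per length in the other lists were Dbi, the acyl-CoA binding protein, at 273 and 267 CPM per kb with vehicle and 5D, Ech1, a dienoyl-CoA isomerase, at 130 and 137, and Hilpda, an inhibitor of droplet lipolysis, at 65.2 and 71.5.

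The PPAR target genes Pdk4 and Plin1 and the adipocyte genes Cidec and Adipoq had no row and were not analysed here, while Plin4, Plin5, G0s2 and Ppargc1a had a row but too few counts to be tested.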

How the data were processed

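RNA of 4 libraries of sorted lung ILC2s, 2 with vehicle and 2 with compound 5D, was analysed. The authors made cDNA with a low-input kit, sequenced it on a NextSeq 500 system, aligned reads with STAR to mm10 with GENCODE M21 annotations and quantified them in Partek. The submitters' processing notes give STAR 2.6.1 and CASAVA 1.8.2. Whether counting used strand is not given in the sources used here. The authors deposited 1 table of estimated counts per gene, before normalization, of which 50.4% to 53.2% per library were whole numbers, and values were rounded here. Shared reads and near-identical copies can therefore move part of a gene's count. Exons of 11 members overlap a gene on the other strand, and exons of 2 members overlap a gene on the same strand. The 11 include Acsl5, Hadha, Acaa1a, Acadvl (with Dvl2) and Etfdh (with 4930579G24Rik).

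Estimated counts were scaled by their upper quartile. The filter kept 17650 of the 22554 genes, those whose normalized counts had a mean of at least 1 and summed to at least 10. Vehicle and 5D were compared with the two-sided quasi-likelihood test of edgeR 4.0.16 (R 4.3.3) without covariates, adjusted after Benjamini and Hochberg over these genes. The Gene Set Analysis that the authors used was not run. A standard error is the log2 fold change (absolute) over the square root of F, and 95% intervals use the t quantile of the fit. The biological coefficient of variation was 8.51%. The smallest p-value an exact permutation test of 2 against 2 libraries can give is 0.333, so none was run. Levels per length divide normalized CPM by the length of the GENCODE principal transcript. BLAST 2.17.0 served to find near-identical genes (at least 150 nt at 95% identity), and promoter windows came from RefSeq (GRCm38.p6).

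The members and lists were chosen with earlier results of these data known. Every member found is named, as is each further gene with an unadjusted p-value under 0.05 and the gene with the highest per-length level of each further list, apart from a few that this text does not report. The alternatives were TMM, DESeq2's size factors, the upper quartile after the filter, no mitochondrially encoded genes, DESeq2 1.42.0, limma-voom (limma 3.58.1), no filter, filterByExpr, the replicate number as a block and leaving out each library. The code was tested on simulated data. Python 3.11.15 and matplotlib 3.10.9 drew the figures.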

Additional observations from a re-analysis of the deposited data

How the results depend on the processing

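Members higher at an adjusted p-value under 0.05 numbered 0 in the reported test, 1 with DESeq2's Wald test, 1 with limma-voom, 1 with no filter, 1 with the replicate block and 0 to 1 when a library was left out, and that gene was Plin2 each time. Members lower at that threshold numbered 0 under every alternative run. The labels number the libraries 1 and 2 in both groups, but the differences between replicates correlated by only 0.061 across 8737 genes, so the numbers were not taken as pairs, and the replicate block moved the calls over all genes from 5 higher and 12 lower to 9 and 32. Over all genes, DESeq2 called 16 higher and 42 lower, limma-voom 9 and 23, no filter 11 and 35, filterByExpr 7 and 17, and leaving out a library 3 to 73 higher and 12 to 107 lower. At an unadjusted p-value under 0.05, members lower numbered 1 as reported, 0 under TMM and 0 to 2 when a library was left out, further lipid genes higher numbered 9 as reported and 3 to 9, and further lipid genes lower numbered 3 as reported and 0 to 5. The median log2 fold change of the members ran from -0.00067 to 0.028 when a library was left out.

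Single members near 0 changed sign. With upper quartile factors from the filtered table, Slc25a20 was -0.0093 and Echs1 -0.0061. When a library was left out, log2 fold changes ran from -0.046 to 0.014 for Fabp5, -0.27 to 0.027 for Cpt2, -0.088 to 0.097 for Slc25a20, -0.14 to 0.025 for Acads, -0.066 to 0.19 for Hadha, -0.039 to 0.10 for Hadh, -0.071 to 0.081 for Echs1, -0.028 to 0.12 for Acaa2, -0.060 to 0.081 for Eci1, -0.016 to 0.23 for Eci2, -0.0079 to 0.083 for Etfa and -0.0069 to 0.14 for Etfdh. The ranges were -0.11 to 0.043 for Acaa1a, -0.50 to 0.32 for Ehhadh, -0.024 to 0.066 for Hsd17b4, -0.11 to 0.063 for Ppard, -0.17 to 0.013 for Pparg, -0.055 to 0.29 for Dgat1, -0.15 to 0.037 for Pnpla2, -0.12 to 0.15 for Lipe and -0.13 to 0.35 for Mgll. The other members kept their sign under every alternative run. A fit without a library leaves a group with 1 library, which is assumed to vary like the other group. The cause of these changes was not tested. Normalization moved the median of all genes by less than 0.1 on the log2 scale. Low counts limit Cd36, Ppard and Vldlr among the genes named with a fold change, and 5 members had a 95% interval reaching beyond 1.5-fold.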
